A study of Mus musculus with 6 samples.

Results

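The 10 genes described here encode the subunits of the transcription factor AP-1 and its close relatives: Jun, Junb and Jund of the Jun family, Fos, Fosb, Fosl1 and Fosl2 of the Fos family, and Batf, Batf3 and Jdp2. They were chosen by name out of 52636 genes per table, with their change in these libraries already known, so their values are given as a description and carry no test. All 10 were matched by symbol, and 8 of them had enough reads to enter the fit across 11561 genes. RNA was sequenced from RAW264.7 cells, a macrophage line of BALB/c origin transformed by a murine leukaemia virus, in 6 libraries. In 3 C2S libraries the cells had been kept with the extract C2S (150 µg/ml, 24 h), and in 3 PM_control libraries without it (0 µg/ml). The labels expand neither abbreviation and do not say whether libraries of a group came from separate cultures, so the spread between them may be technical. The comparison asks how transcripts of this line differ between cells with and without the extract.

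AP-1 binds DNA as a dimer held together by leucine zippers. Jun proteins can pair with each other or with Fos proteins, whereas Fos proteins need a Jun partner, so the mixture of subunits in a cell decides which dimers can form. In macrophages these genes are known as early response genes that stress and bacterial products switch on through MAP kinases, and Fos is required for the same precursors to become osteoclasts.

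Among the subunits, Fosb stood out by its change and Jun by its change at a high level, while Fos was the single subunit with less transcript in C2S cells. Transcripts of Jun, Junb, Jund, Fosb, Fosl1, Fosl2 and Jdp2 were more abundant in C2S than in PM_control cells, by 1.68-fold for Junb to 194-fold for Fosb in edgeR's fit of the counts. All 8 fitted subunits lay beyond the adjusted p of 0.05 with no overlap between the groups, 7 of them higher and 1 lower. Of all 11561 genes tested, 55.4% were called, made up of 27% higher in C2S and 28.4% lower, and 61.1% did not overlap. The median log2 fold change of the 8 subunits was 1.58, against -0.002 for all genes tested. These counts are part of how the genes were picked and support nothing further.

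Each library held between 8594485 and 10665869 expected counts, so a floor of 3 counts was worth 0.281 to 0.349 CPM, the count scaled to library size. edgeR called 3123 genes higher and 3282 lower, against 2478 higher and 3999 lower with library sizes alone as the scaling, and 1717 higher and 3065 lower with limma on log2(TPM + 1). TPM is a transcript level scaled for length and depth. Summed over 10 macrophage markers it was 8123 to 8259 TPM in C2S and 8064 to 8280 TPM in PM_control libraries, with 5 markers called higher and 1 lower. The sum over 8 markers of other cell types was 3.98 to 6.25 TPM in C2S and 0.20 to 0.37 TPM in PM_control libraries. Of these 8, Pecam1, listed for endothelium, had 66, 69 and 29 counts in C2S and 2, 1 and 3 in PM_control. Mpo, listed for neutrophil precursors, had 25, 14 and 15 counts in C2S and none in PM_control. Mpo is uncertain, since 14.95% of its exon length overlaps another gene. Cd3e, Epcam, Alb and Ppbp had no count in any library. Counts of Pecam1 and Mpo alone do not show that other cell types were present. The part of these markers in the values of the AP-1 subunits was not tested. In RNA from many cells, fewer cells of a type and less RNA per cell cannot be told apart.

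**Figure D1:**
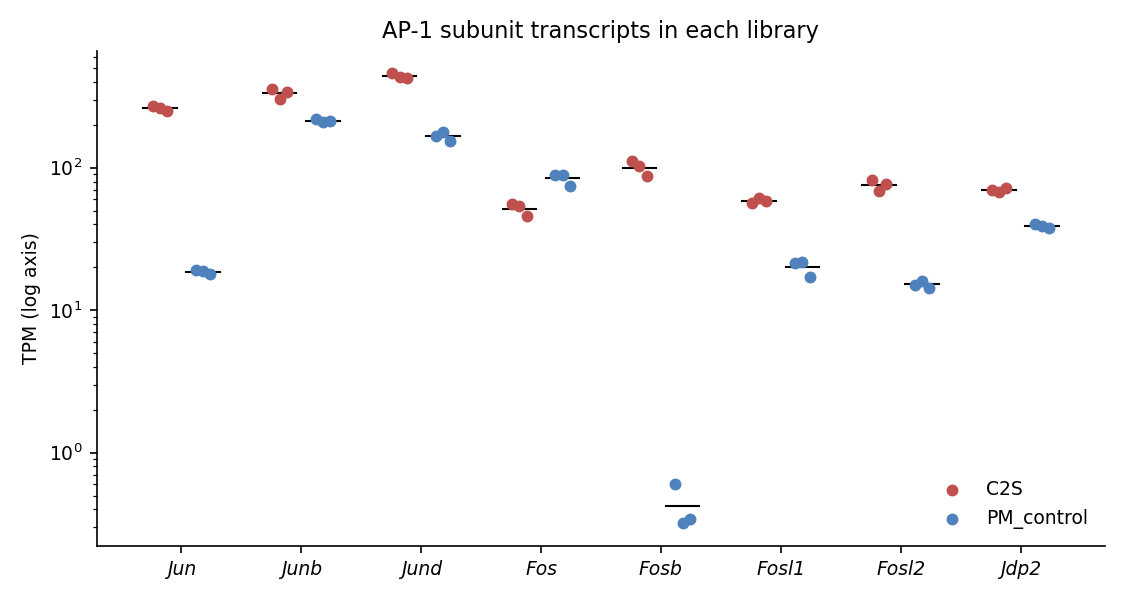
Level in TPM (log axis) of the 8 subunits that entered the fit. Points are libraries, C2S left of PM_control for each gene, and lines are group means. Fosb lies between 87.1 and 111 TPM in C2S and at 0.60 TPM or less in PM_control, and Fos is the gene whose C2S points lie under its PM_control points.

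Jun is the family's strongest transactivator and a substrate of the JNK kinases, and it is known to stimulate its own promoter. Its level was 272, 261 and 249 TPM in C2S libraries 1 to 3, against 19.0, 18.9 and 18.1 TPM in PM_control libraries 1 to 3. The lowest C2S library was thus far above the highest PM_control library. The fitted difference was 15.01-fold, a log2 fold change of 3.91 ± 0.07 (SE). Ranked by mean TPM among the 11561 genes tested, Jun was at position 592 in C2S cells and 6397 in PM_control cells. Its gene at chr4:95049034-95052222 (minus strand, GRCm38) has 1 exon, and 7.28% of it overlaps the noncoding antisense gene Junos, which had 12, 12 and 15 counts in C2S and 2, 3 and 5 in PM_control. At those counts, Junos reads are few beside the 4439 to 5754 counts of Jun in C2S.

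Junb, which activates weakly through single AP-1 sites and can oppose Jun, was the most abundant subunit in PM_control cells. Its level was 360, 305 and 338 TPM in C2S and 219, 211 and 213 TPM in PM_control, and its log2 fold change was 0.75 ± 0.07 (SE), or 1.68-fold. The groups did not overlap, but the 3 C2S libraries differed more among themselves (SD 27.7 TPM) than the 3 PM_control libraries (SD 4.14 TPM). The gene lies at chr8:84974484-84978718, and 7.52% of it overlaps Prdx2.

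Jund is the subunit usually expressed in resting cells. In the C2S libraries it reached 460, 430 and 427 TPM, the highest level of any subunit, against 168, 179 and 153 TPM in PM_control. The log2 fold change was 1.50 ± 0.07 (SE), or 2.83-fold, with a clear gap between the groups. The level of Jund is uncertain: 52.6% of this gene of 1 exon (chr8:70698949-70700616) is shared with the antisense gene Gm11175, which lies wholly within it. RSEM gave Gm11175 a further 1345, 1129 and 1123 counts in C2S and 515, 471 and 389 in PM_control, 22.4% to 24.3% of the reads of the pair in C2S and 22.2% to 23.6% in PM_control. That share was alike in both groups, and adding those reads to Jund raised its level to 554 to 593 TPM in C2S and 197 to 231 TPM in PM_control without moving one group past the other. The sources do not say whether counting used strand, so reads of the gene and its antisense partner could not be separated.

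Fos, the founding member of its family and one that carries a transactivation domain, had 55.4, 53.9 and 45.6 TPM in C2S and 88.9, 89.1 and 74.8 TPM in PM_control. It was lower in every C2S library than in any PM_control library, with a log2 fold change of -0.57 ± 0.09 (SE), or 1.49-fold less transcript in C2S. Its rank by level was 3041 of 11561 in C2S and 1969 in PM_control. Fos lies at chr12:85473890-85477273.

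Fosb is closest to Fos in structure, and splicing also gives a short form, known as ΔFosB, that lacks the C-terminal transactivation domain. It had 111, 103 and 87.1 TPM in C2S, from 2204, 1532 and 1449 counts. The PM_control libraries had 0.60, 0.32 and 0.34 TPM, from 15, 7 and 7 counts. Fosb was therefore near the floor of detection in PM_control cells and the fourth most abundant subunit in C2S cells, and its rank by level was 1556 in C2S and 11311 in PM_control. The log2 fold change was 7.60 ± 0.17 (SE), or 194-fold, and 16 of the 11561 genes tested had a larger one. RSEM's gene length, the mean over transcripts weighted by their estimated abundance, was for Fosb in C2S 2915 ± 89.4 bases (SD, n = 3). The gene (chr7:19302696-19310051) has 1 annotated transcript of 1090 bases and 6 of 3523 to 3782 bases. The mean thus lies between the transcript of 1090 bases and the others. Which of these transcripts encode ΔFosB was not determined, so the mean length gives no share of that form. RSEM's gene tables do not separate the full-length and short protein forms, and PM_control libraries had under 20 counts, so no length is given for them.

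Fosl1 and Fosl2, also known as Fra-1 and Fra-2, lack the transactivation domain of Fos and Fosb. Fosl1 was at 56.7, 61.2 and 58.6 TPM in C2S and 21.3, 21.7 and 17.2 TPM in PM_control, a log2 fold change of 1.65 ± 0.10 (SE). Fosl2 was at 81.5, 69.1 and 77.3 TPM in C2S and 15.1, 16.0 and 14.4 TPM in PM_control, a log2 fold change of 2.42 ± 0.07 (SE). For both genes all C2S libraries lay above all PM_control libraries. Fosl1 (chr19:5447547-5455946) is uncertain, since 57.2% of its exons overlap Ccdc85b in GENCODE M21. The deposited data list 1 Fosl1 transcript, with a length of 1707 bases, where GENCODE M21 has 3. The overlap of the counted transcript may therefore differ. In the deposited tables Ccdc85b is a transcript of 609 bases with 150, 102 and 110 counts in C2S and 131, 127 and 133 in PM_control, so its own values hardly differed between the groups (log2 fold change 0.03). Fosl2 lies at chr5:32135801-32157842 and shares no exon bases with another gene there.

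Jdp2 is a repressor that binds AP-1 sites, mostly as a partner of Jun proteins. It had 70.3, 67.6 and 71.7 TPM in C2S and 40.4, 39.0 and 37.8 TPM in PM_control, with a log2 fold change of 0.94 ± 0.08 (SE). Its C2S libraries were within 5 TPM of each other and all above the PM_control libraries. Batf and Batf3 pair with Jun proteins, carry no transactivation domain and are best known from T cells and dendritic cells. Batf had 4, 2 and 0 counts in C2S and Batf3 0, 2 and 0, and neither had a count in any PM_control library. With most libraries under the floor of 3 counts, no difference in Batf or Batf3 was detectable at this depth.

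The summed level of the 10 subunits was 1391 ± 66.4 TPM in C2S and 559 ± 25.9 TPM in PM_control (SD, n = 3 each), 2.49 times as much. Jun family transcripts summed to 1034 ± 51.2 TPM in C2S and 400.0 ± 13.5 TPM in PM_control, and Fos family transcripts to 286.7 ± 17.9 TPM in C2S and 119.9 ± 11.4 TPM in PM_control. Both families were therefore larger in C2S, by 2.58 and 2.39 times, and the Jun to Fos family ratio was 3.61 ± 0.15 in C2S and 3.35 ± 0.22 in PM_control, with SDs about as large as the gap. Of the net difference in summed TPM, Jund made up 32.7%, Jun 29.1%, Junb 14.4% and Fosb 11.998%. Fosb, with the largest fold change, thus carried less of the added transcript than Jund, Jun or Junb, while Jun was high by both measures.

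**Figure D2:**
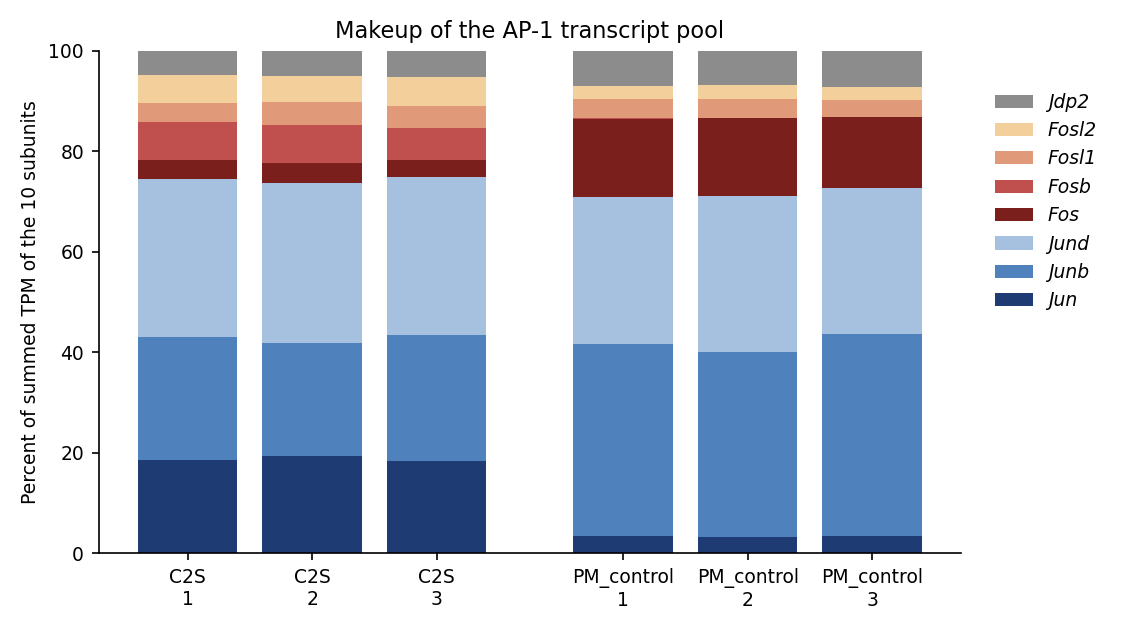
Share of each subunit in the summed TPM of the 10 subunits, in percent, for each library, with C2S libraries on the left. Jun family genes are blue, Fos family genes red to yellow and Jdp2 grey, and Batf and Batf3 are too small to see. Jun and Fosb take 18.7% and 7.20% on average in C2S and 3.34% and 0.075% in PM_control.

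What differed was the makeup within each family. Jun made up 25.2% ± 0.88 of Jun family transcripts in C2S and 4.66% ± 0.048 in PM_control (SD, n = 3 each). Junb made up 32.3% ± 1.5 in C2S and 53.6% ± 1.9 in PM_control. The share of Jund was 42.5% ± 0.60 in C2S and 41.7% ± 2.0 in PM_control, a gap within the spread of the PM_control libraries. So the Jun family pool of C2S cells had more Jun and less Junb per transcript at a like share of Jund, and the ratio of Jun to Junb was 0.783 in C2S and 0.0870 in PM_control. In the Fos family, Fos made up 17.98% ± 0.93 in C2S and 70.3% ± 0.31 in PM_control, and Fosb 34.9% ± 2.2 in C2S and 0.349% ± 0.12 in PM_control. The family's leading transcript was Fosb in C2S libraries and Fos in PM_control libraries. Fosl2 had 26.5% ± 2.4 of the Fos family in C2S and 12.7% ± 0.77 in PM_control, and Fosl1 20.6% ± 1.7 in C2S and 16.7% ± 0.53 in PM_control. Fos and Fosb, the Fos proteins with a transactivation domain in their full-length form, together had 152 ± 17.3 TPM in C2S and 84.7 ± 8.25 TPM in PM_control. The sum of Fosl1 and Fosl2, which lack it, was 135 ± 4.10 TPM in C2S and 35.2 ± 3.23 TPM in PM_control.

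The order of levels in C2S cells was Jund, Junb, Jun, Fosb, Fosl2, Jdp2, Fosl1, Fos, Batf and Batf3, and only the ranges of Fosl2 and Jdp2, and of Batf and Batf3, overlapped between neighbours in that order. In PM_control cells the order was Junb, Jund, Fos, Jdp2, Fosl1, Jun, Fosl2, Fosb, with Batf and Batf3 at 0, and the ranges of Fosl1 and Jun overlapped. Fos was thus the third subunit in PM_control and the eighth in C2S. With the Gm11175 reads added to Jund, its PM_control range of 197 to 231 TPM overlapped the 211 to 219 TPM of Junb, so the lead of Junb in PM_control rests on how those reads are assigned.

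**Figure D3:**
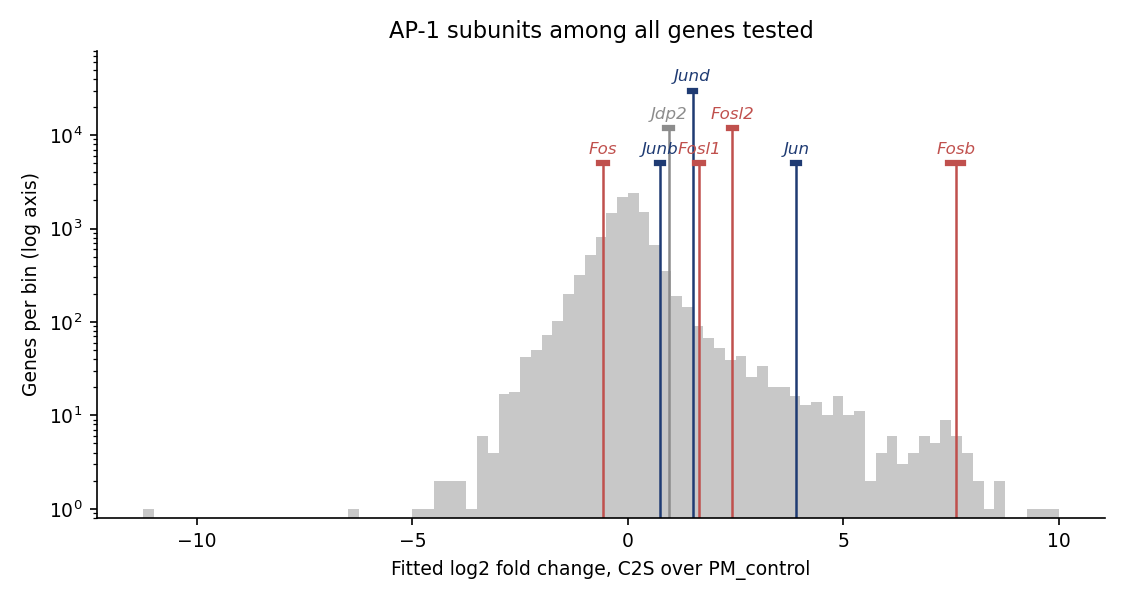
Fitted log2 fold changes of the 8 subunits (coloured lines, with a bar of ± 1 SE at the top) over the distribution of all 11561 genes tested (grey, number of genes per bin of 0.25, log axis). Fos lies left of 0 at -0.57 and the other 7 right of 0, from Junb at 0.75 to Fosb at 7.60.

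The bases before the start sites of Jun, Fosb and Fos are shown because these genes span the range of differences, from the largest increase to the single decrease. RefSeq promoter windows (250 bases before to 50 after a start, GRCm38.p6) matched 9 of the 10 genes in 11 windows, with none for Fosl1. RefSeq and GENCODE starts were the same for Jun and Fos. Counted from the GENCODE start (negative is upstream), the RefSeq start lay at -1210 bases for Jund, 671 for Fosl2 and 567 for Batf3. For Jdp2 it lay at up to 991 bases. Sequence outside the windows was not searched, so a motif missing from them may lie elsewhere. Each line gives the 250 bases before the start, 5′ to 3′ in the direction of transcription, with matches to a motif in capitals.
Jun, chr4:95052223-95052472, minus strand: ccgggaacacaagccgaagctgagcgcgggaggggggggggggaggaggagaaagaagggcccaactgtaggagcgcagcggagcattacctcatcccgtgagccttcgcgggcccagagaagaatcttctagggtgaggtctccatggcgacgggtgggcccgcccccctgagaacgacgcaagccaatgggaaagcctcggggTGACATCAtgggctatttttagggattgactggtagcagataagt
Fosb, chr7:19310046-19310295, minus strand: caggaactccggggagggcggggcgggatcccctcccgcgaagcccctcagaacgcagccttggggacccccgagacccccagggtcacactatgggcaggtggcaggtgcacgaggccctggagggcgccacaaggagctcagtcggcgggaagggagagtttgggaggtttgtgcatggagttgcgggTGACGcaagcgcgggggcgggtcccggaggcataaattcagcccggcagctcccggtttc
Fos, chr12:85473640-85473889, plus strand: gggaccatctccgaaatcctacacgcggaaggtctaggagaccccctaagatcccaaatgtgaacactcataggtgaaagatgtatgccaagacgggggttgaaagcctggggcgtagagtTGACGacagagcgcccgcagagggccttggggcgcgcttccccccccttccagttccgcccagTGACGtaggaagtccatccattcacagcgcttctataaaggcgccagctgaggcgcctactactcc
On either strand, no window of a subunit held an exact match to any of 3 consensus sites. Of 32851 windows of all genes, 5.20% held the AP-1 consensus TGACTCA and 1.79% the cyclic AMP response element consensus TGACGTCA. The serum response CArG box was in 1.63%. Sites that vary from a consensus, such as TGACATCA, were not counted as matches to it. In the promoter of Jun the capitals mark TGACATCA, first base 45 bases before the start, a match to TGACNTCA, which 8.83% of windows held and which includes TGACGTCA. In the promoters of Fosb and Fos they mark TGACG, the left part of TGACGTCA, which 20.8% of windows held. It begins 60 bases before the start of Fosb, and 129 and 66 bases before that of Fos. TGACG also occurred once each before Junb (106 bases), Batf (98 bases) and Jdp2 (114 bases in 1 of 3 windows). The last 2 patterns were searched after the first 3 had given no match. TGACG contains CG, so windows rich in G and C may hold it more often. G and C made up 68.8% of the 250 bases before Fosb, 58.4% before Fos and 66.4% before Junb. The values were 72.4% for the Jdp2 window with TGACG and 46.4% for Batf, against a median of 52.4% over all windows. Any link between TGACG and the differences in transcript was not tested.

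Several of these transcripts are textbook carriers of AU-rich elements, sequences in the 3′ untranslated region through which tristetraprolin, the product of Zfp36, is known to speed mRNA decay. The sites of Fos, Jun and Fosb are shown since these genes differed most in direction or size, with the 7 bases TATTTAT in capitals and 7 bases on each side, read from GENCODE M21 transcripts.
Fos, site 1, chr12:85477107-85477127, plus strand: ttcaattTATTTATtaagatg
Fos, site 2, chr12:85477131-85477151, plus strand: tctcagaTATTTATattttta
Jun, site 1, chr4:95049083-95049103, minus strand: ttgtgcaTATTTATaatagcg
Fosb, site 1, chr7:19303330-19303350, minus strand: ccccagcTATTTATccctttc
TATTTAT was present on the transcript strand in the 3′ untranslated region of 6 of the 10 subunits, 3 times in Fosl2, 2 times in Fos and once in Jun, Jund, Fosb and Fosl1. Junb, Batf, Batf3 and Jdp2 had none. The site of Fosl1 was read from a transcript of 1864 bases, against 1707 bases for Fosl1 in the deposited data, so the counted transcript may lack it. Of 10498 tested coding genes, 29.98% had at least 1. The sites of Fos start 24 bases apart.

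Among 13 genes whose proteins pair with AP-1 subunits or bind beside them, 10 were tested, and edgeR called 7 higher and 1 lower in C2S, 80% against 55.4% of all genes. The list's median log2 fold change was 0.78. Atf3, a stress-induced partner of Jun, rose by a log2 fold change of 4.27 ± 0.09 (SE; adjusted p = 8.79e-16), with 237, 238 and 229 CPM in C2S and 10.2, 12.8 and 13.5 CPM in PM_control. The small Maf proteins Maff and Mafk have no transactivation domain. Maff rose by 6.50 ± 0.18 (adjusted p = 2.13e-14) and had 699, 530 and 608 counts in C2S and 4, 7 and 11 in PM_control, the pattern of a gene close to absent without the extract that Fosb showed too. Mafk rose by 2.51 ± 0.08 (adjusted p = 1.02e-13). Atf7 fell by 0.33 on the log2 scale (adjusted p = 0.00104), is uncertain since 11.7% of it overlaps another gene, and was not called by limma on log2(TPM + 1) (adjusted p = 0.38). When C2S replicate 3 was left out, 2 partners were called lower.

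**Figure D4:**
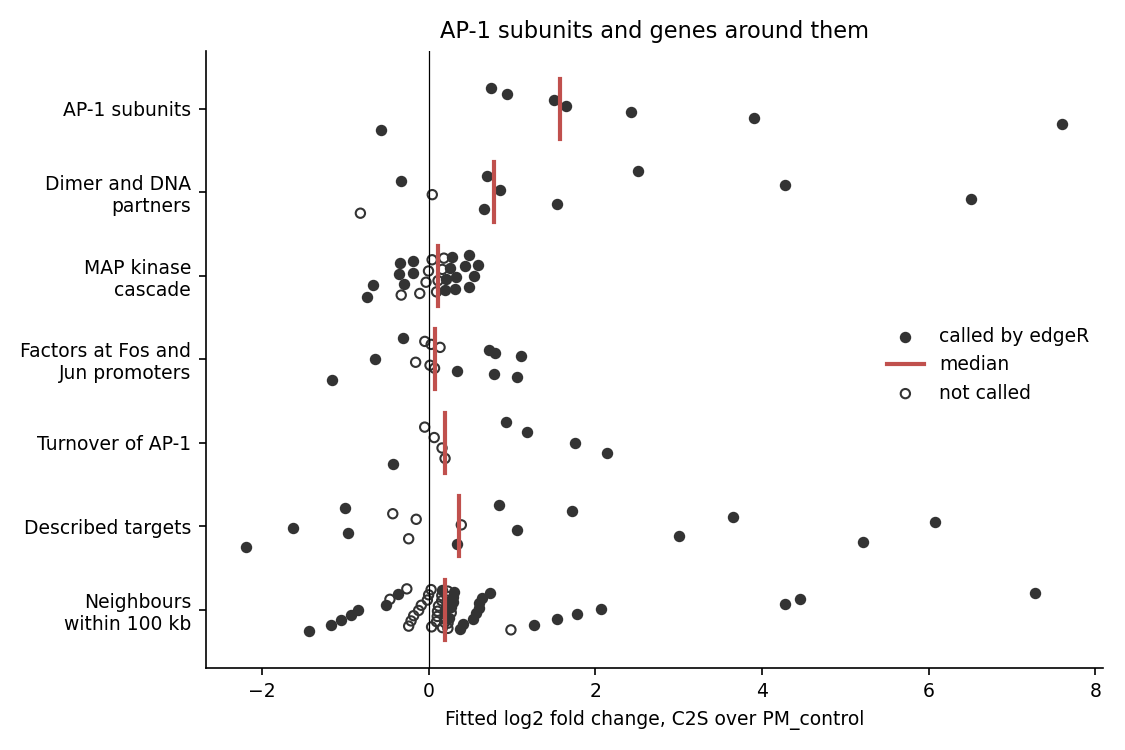
Fitted log2 fold changes (C2S over PM_control) of the tested genes in each list and of neighbours of the subunits. Filled points were called by edgeR, open points were not, and red bars are list medians, from 1.58 for the subunits to 0.07 for factors at the Fos and Jun promoters. The fitted values of Iqcn (7.28) and Gdf15 (4.45) among the neighbours rest on 1 and 2 PM_control counts in all.

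MAP kinases phosphorylate Jun and Fos proteins and the factors that switch on their genes. Of 30 genes of the cascade, 27 were tested, and 11 were called higher and 7 lower (66.7%, against 55.4% of all genes, 27% higher and 28.4% lower), or 4 lower without C2S replicate 1, with a median log2 fold change of 0.11. Among the kinases upstream of MAP kinases, Map2k3, which activates p38, rose by 0.48 ± 0.06 (adjusted p = 2.89e-06). Map3k3 rose by 0.54 ± 0.08 and Map2k5 by 0.59 ± 0.09. In contrast, Map3k4 fell by 0.75, Map3k1 by 0.67 and Map2k7, which activates JNK, by 0.35 on the log2 scale. Map2k7 is uncertain, since 35.2% of it overlaps another gene. Map2k4, which activates JNK too, rose by 0.25 ± 0.08 (adjusted p = 0.0115); it was named after its values were seen. Of the JNK genes, Mapk8 differed by 0.11 ± 0.10 (adjusted p = 0.33) and Mapk9 by -0.19 ± 0.08, which passed narrowly (adjusted p = 0.0465) and failed under 11 of 12 alternatives (adjusted p 0.0517 to 0.398). The call of Map3k1 was also lost with limma on log2(TPM + 1) (adjusted p = 0.0886). RNA levels do not show kinase activity.

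Of 15 transcription factors and coactivators known to act at the promoters of Fos and Jun, 6 were called higher and 3 lower (60%, near the 55.4% of all genes), with a median of 0.07. Srf, which binds the serum response element of Fos, rose by 1.06 ± 0.06 (adjusted p = 4.55e-10), and its partner Elk1 rose by 0.72 ± 0.11. Elk3, a partner of Srf that can repress, fell by 1.16 (adjusted p = 5.47e-08). Mef2d, of a family known to act at the Jun promoter, rose by 0.78 ± 0.06 and its relative Mef2c fell by 0.30, a call lost with limma on log2(TPM + 1) (adjusted p = 0.253). Creb1, which binds cyclic AMP response elements, fell by 0.65 (adjusted p = 1.59e-05), and Crtc3, a CREB coactivator, rose by 0.80 ± 0.09. Elk1 and Elk3, both partners of Srf, thus changed in opposite directions.

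Of 10 genes that act in the turnover of AP-1 proteins and transcripts, 9 were tested, with 4 called higher and 1 lower (55.6%, close to the background of 55.4%) and a median of 0.20. Zfp36 rose by 2.14 ± 0.06 (adjusted p = 7.08e-14), with 417, 380 and 379 CPM in C2S and 92.7, 86.5 and 86.6 CPM in PM_control. Its relatives Zfp36l2 and Zfp36l1 rose by 1.18 ± 0.07 and 1.76 ± 0.13, the second of them uncertain because 55.9% of it overlaps another gene. Det1, part of a ubiquitin ligase that acts on Jun, fell by 0.42 (adjusted p = 0.0071). Elavl1, which encodes the AU-rich element binding protein HuR, differed by -0.05 ± 0.07 (adjusted p = 0.609) and its groups overlapped; it was named after its values were seen. The C2S cells, in which Zfp36 and its 2 relatives were higher, had more of 5 of the 6 subunit transcripts with TATTTAT and less of the sixth, Fos. Any link between the 2 was not tested.

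Of 27 genes described as AP-1 targets in other settings, 16 were tested, with 8 called higher and 4 lower (75%, against 55.4% of all genes, 27% higher and 28.4% lower) and a median of 0.37. Vegfa, an angiogenic growth factor, rose by 6.07 ± 0.16 (adjusted p = 1.62e-14), with 188, 132 and 149 CPM in C2S and 2.39, 1.92 and 2.62 CPM in PM_control. Bcl2l11, which encodes the apoptosis inducer Bim, rose by 3.01 ± 0.08, and Hmox1, the haem-degrading enzyme, by 1.72 ± 0.08. Nfatc1, the regulator of osteoclast formation that is known to need Fos, fell by 2.19 (adjusted p = 3.33e-13), with 101, 106 and 111 CPM in C2S and 481, 532 and 434 CPM in PM_control. Plau, the urokinase plasminogen activator, fell by 1.63, and Ccnd1, cyclin D1, fell by 1.01 with 23.4% of it overlapping another gene. Described targets therefore changed in both directions, and 11 were too low to test.

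By position, the subunits fall on 7 chromosomes. Fos, Jdp2 and Batf lie in that order on chromosome 12, with 122 kb between Fos and Jdp2 and 46.8 kb between Jdp2 and Batf. In C2S the levels of this cluster were lower for Fos, higher for Jdp2 and near 0 for Batf. Of 57 tested genes within 100 kb of a subunit, 24 were called higher and 7 lower, 54.4% against 55.4% of all genes, with a median log2 fold change of 0.20. The combined share was close to the background, where all genes had 27% higher and 28.4% lower. More neighbours were called higher than lower, but their numbers moved with the setting. Library sizes alone gave 15 higher and 9 lower, and limma on log2(TPM + 1) gave 13 and 7. Leaving out each library gave 16 to 27 higher and 6 to 8 lower. The 24 include Gm11175, Junos and Prdx2, which overlap Jund, Jun and Junb, so their reads may not be separate from those subunits. Near Jun, Junos rose by 2.07 ± 0.54 (adjusted p = 0.00353), and near Fosl2, Babam2 rose by 0.61.

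Near Junb, Mast1 rose by 1.26 and Fbxw9 by 0.54, and Dhps, Prdx2, Rnaseh2a, Asna1 and Tnpo2 rose by 0.30 or less. Near Jund, beside Gm11175 (1.54), Iqcn, 2.84 kb away, had 77, 60 and 58 counts in C2S and 0, 1 and 0 in PM_control, and Gdf15, a stress-induced cytokine 66.5 kb away, had 19, 12 and 16 counts in C2S and 1, 0 and 1 in PM_control. Both were called higher, as were Mast3 (0.56), Ifi30 (0.30) and Mpv17l2 (0.25), while Pgpep1 fell by 1.05 and Rab3a fell by 1.17. The neighbours of Fosb moved against it in 3 of 5 calls: Cd3eap fell by 1.43, Opa3 by 0.93 and Ercc2 by 0.52, while Vasp rose by 0.42 and Gm26852 by 1.79. Near Fosl1, AI837181 fell by 0.85, Efemp2 rose by 0.64, Cfl1 by 0.38, Drap1 by 0.29 and Sart1 by 0.27. Near Batf3, which had almost no reads, Atf3 (61.4 kb away), A230020J21Rik (0.74) and Flvcr1 (0.61) rose and Nsl1 fell by 0.37. Mast1, Tnpo2, Gm11175, Ercc2, Gm26852, Cfl1, A230020J21Rik and Flvcr1 overlap other genes by 10% or more and are uncertain. The calls of Prdx2, Rnaseh2a, Asna1, Tnpo2, Dhps, Mpv17l2, Ifi30, Vasp, Gm26852, Efemp2, Drap1, Sart1, Nsl1 and A230020J21Rik were each lost under at least 1 of the 12 alternatives.

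The genes with the profile most like that of a subunit were found by the distance between log2 CPM values over the 6 libraries. Values were centred on the mean of PM_control. The 9625 genes compared had a mean of at least 5 CPM, and predicted genes with Gm or Rik names were passed over. A constant added to CPM before the log weighs most on low values, such as those of Fosb in PM_control. For Jun the nearest were Pnrc1 (distance 0.214), Plk3 (0.255), Pim1 (0.338, uncertain by an overlap of 14.5%), Dusp1 (0.403) and Osm (0.435). Their log2 fold changes were 3.80 to 3.86, beside 3.91 for Jun. For Junb they were Ubald1, Nuak2, Cd82, Dnaja1 and Slc6a8, at distances of 0.083 to 0.116. For Fosb the nearest were Nr4a3 (1.83), Vegfa (2.26), Maff (2.45), Trib3 (2.45) and Arid5a (3.10), far less close than for Jun and Junb. By log2 fold change Fosb stood at position 17 of 11561, Jun at 134 and Junb at 1225, with fewer genes changing as much as Fosb. The PM_control values of Fosb rest on 7 to 15 counts. These distances were computed over the libraries of the comparison itself and describe likeness in size and spread alone.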

How the data were processed

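Each library came as 1 deposited table; per the file headers it lists RSEM's expected counts, TPM, FPKM, length and effective length of every gene. The series design text names fastp for trimming, STAR for alignment to mm10 and RSEM for counting; versions, the annotation and the strand setting are not stated. Expected counts are the deposited estimates of reads per gene, the deposited TPM values are scaled for length and depth, and the deposited FPKM values were not used.

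Coordinates and overlaps came from GENCODE M21 (GRCm38), which held 52489 of the 52636 genes. Overlaps were counted on either strand, and those of at least 10% of exon length are called uncertain. Expected counts were rounded and passed through filterByExpr (minimum count 10, minimum total 15), which kept 11561 genes and 99.85% of counts. Groups were compared in edgeR 4.0.16 (R 4.3.3) by the quasi-likelihood F test after TMM scaling, with p adjusted by Benjamini-Hochberg over all genes tested and a threshold of 0.05. The biological coefficient of variation was 7.52%. An SE is the log2 fold change over the square root of F. Shares and sums were taken from TPM. Libraries of a group differed from each other beyond sampling noise (chi-square over degrees of freedom 4.30 to 6.46).

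The subunits and all lists were chosen with earlier results of these data known. Named genes were all subunits, up to 3 genes per list and direction with the smallest adjusted p among called genes that did not overlap, fixed genes (Atf3, Maff, Mapk8, Mapk9, Srf, Elk1 and Zfp36), called neighbours within 100 kb and the 5 nearest profiles. Some genes that the rule or the marker lists name are not reported here. Marker genes and the genes that overlap a subunit are named as checks, outside that rule. Elavl1 and Map2k4 were named after their values were seen, also outside it. Alternatives were RLE scaling, library sizes alone, no low-count filter, DESeq2 1.42.0, limma 3.58.1 on log2(TPM + 1) where the mean was at least 1 TPM, the replicate number as a block and leaving out each library; the test was tried on simulated data.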

Additional observations from a re-analysis of the deposited data

How the results depend on the processing

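The log2 fold changes of the 8 fitted subunits kept their sign under 12 alternatives each; Fosb ranged from 6.15 (limma on log2(TPM + 1)) to 7.999 (without PM_control replicate 1). Of 288 recomputed main values, 255 stayed within the spread or within 1.5 times, and the cause of the other shifts was not tested. Limma on log2(TPM + 1) called 1717 genes higher, 0 partners lower, 4 MAP kinase cascade genes higher and 4 lower, 2 turnover genes lower and 13 neighbours higher. Library sizes alone called 15 neighbours higher. A window of 50 kb held 11 neighbours called higher, and one of 200 kb 44 higher and 14 lower. Leaving out each library gave 1 to 2 partners called lower (2 without C2S replicate 3) and 4 to 6 MAP kinase cascade genes called lower (4 without C2S replicate 1).

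With Gm11175 reads added to Jund, shares of summed TPM in C2S were 37.5% for Jund, 21.9% for Junb, 17.1% for Jun, 3.39% for Fos, 3.87% for Fosl1, 4.98% for Fosl2 and 4.59% for Jdp2, and in PM_control 35.5% for Jund, 35.3% for Junb, 3.07% for Jun, 13.8% for Fos, 2.49% for Fosl2 and 6.43% for Jdp2. Counts per longest transcript gave 20.2% for Jun, 31.2% for Jund, 5.92% for Fosb, 3.86% for Fosl1 and 5.92% for Fosl2 in C2S, and 3.60% for Jun, 3.26% for Fosl1 and 2.96% for Fosl2 in PM_control. Both were added after the data were seen, as were the searches for TGACG, TGACNTCA and TATTTAT.

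The replicate number as a block called 3192 genes higher and 3297 lower. Same-numbered libraries had correlations of -0.011, 0.069 and 0.034, so the numbers were not taken as pairs, and not every library correlated best with its own number. Of 73 named genes that are no subunit, 55 kept their side of the threshold under every alternative that could test them, and none changed sign where it was called. Depth limits Batf, Batf3 and the PM_control values of Fosb, which rest on 7 to 15 counts.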

Other observations

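Jun and Jund each have a single exon, as few genes do. Junb is left out of this class because an annotated transcript of it has 2 exons. Its length was 1809 bases in both groups, that of the transcript Junb-201, so Junb need not differ from the class in the counted transcript. Of 192 tested nuclear protein-coding genes with 1 exon in every GENCODE M21 transcript, edgeR called 32 higher and 93 lower in C2S, with a median log2 fold change of -0.47, against 2854 higher and 3019 lower and a median of -0.004 among 10387 genes with more than 1 exon. Jun stood at position 5 and Jund at position 18 of the 192 from the top. The middle 90% of the class ran from -1.92 to 2.91, a range that holds Jund (1.50) and not Jun (3.91), and both genes were chosen with these changes known. The genes of this class were counted after the data were seen, and what moves with exon number was not tested.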
